A study of Rattus norvegicus with 8 samples.

Results

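The reserve zone of the rat femur growth plate was set against its proliferative zone, using 4 of the 8 arrays of a series that covers 4 zones. The growth plate is the cartilage layer in which long bones lengthen. The arrays compared were those labelled reserve zone, 1 from rats aged 42 days and 1 from rats aged 46 days, and those labelled proliferative zone, likewise 1 at 42 days and 1 at 46 days. All were chosen by their titles alone, and the hypertrophic and perichondral arrays entered only the estimate of the spread. Each array held RNA pooled from 3 rats of Rattus norvegicus, extracted on RNeasy columns and amplified by the Ovation method, so each zone had n = 2 arrays that also differ in age. The strain, the way the zones were separated and whether zones shared rats are not given in the sources used here. With nothing to say that pools were independent, the p-values measure only the spread between these arrays.

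The reserve, or resting, zone lies next to the epiphyseal bone and holds slowly dividing chondrocytes that supply the columns below. In the proliferative zone chondrocytes flatten, stack into columns and divide before they enlarge in the hypertrophic zone. Parathyroid hormone-related peptide from resting chondrocytes and Indian hedgehog from maturing chondrocytes form a loop that sets how long columnar cells keep dividing. Growth plate cartilage itself carries no blood vessels, and marrow, bone and osteoclasts lie on either side of it.

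Values are deposited array intensities, given here as the normalized level, log2(intensity + 16), at which the median of all probe sets was 8.25. Differences are reserve minus proliferative on that scale, so 1 unit is a doubling, and the added 16 understates the difference of dim genes. As a measure of how high a gene that cartilage has no known use for can read, 36 genes typical of other organs were followed. The 0.95 quantile of their levels in the 4 arrays was 9.01, called the other-organ level, and 5695 of the 14217 genes with a probe set of their own lay above it in either zone.

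The arrays of 1 zone were not always the closest pair. Over the brightest 0.2 share of the probe sets, the reserve arrays correlated with each other at r = 0.769 and the proliferative arrays at r = 0.615. The 46-day reserve array correlated with the 42-day proliferative array at r = 0.672, above the value within the proliferative zone, while the 42-day reserve and 46-day proliferative arrays correlated at r = 0.419. These are correlations across genes, which are not replicates. The ratio of the 3' to the 5' probe set of Gapdh, a sign of RNA integrity, was 8.15 and 3.96 in reserve arrays and 7.10 and 5.39 in proliferative arrays (42 and 46 days). The same ratio of Actb was 4.65 and 2.32 in reserve arrays and 1.85 and 4.56 in proliferative arrays. The zones overlapped in both ratios. Within an age they differed, with both ratios higher in reserve at 42 days and lower in reserve at 46 days.

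The named genes that passed the test were all higher in reserve arrays: the calprotectin gene S100a9 of neutrophils, the matrix proteases Mmp13 and Mmp9, the metalloreductase Steap4 and the kinase Lats2, with differences from 3.98 to 7.55 on the log2 scale. At an unadjusted p below 0.05, 7 of 15 osteoclast, 7 of 14 bone and 14 of 33 leukocyte genes were higher and 0 lower. Over all genes 6.1% were higher and 2.41% lower. Among the 5695 genes above the other-organ level in either zone, 661 were higher (11.6%) and 177 lower. The lists were chosen with earlier results of these data known. The type II collagen gene Col2a1, the main gene of cartilage matrix, differed by 0.18 and was very bright in both zones. The normalization holds such top-ranked values nearly equal between arrays. Of 33 cell division genes 0 were called in either direction, and their median difference changed sign with age. No probe set was called lower in reserve in the fit over all 8 arrays.

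In the limma fit over all 8 arrays, 7 of 31042 probe sets rose in reserve at an adjusted p below 0.05 (0.0226%) and 0 fell (0.0%). At an unadjusted p below 0.05 there were 1446 higher (4.66%) and 926 lower (2.98%). With age as a block in the fit, 60 probe sets were called higher (0.193%), among them all 7, and 0 were called lower (0.0%). Of those 60, 47 carry a single gene symbol, 39 had a proliferative mean below the other-organ level and 0 had a reserve mean below it. Without limma's variance trend, 0 probe sets were called in either direction, with 1284 higher and 955 lower at an unadjusted p below 0.05, and without the 42-day reserve array 0 were called as well, with 691 higher and 540 lower.

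**Figure D1:**
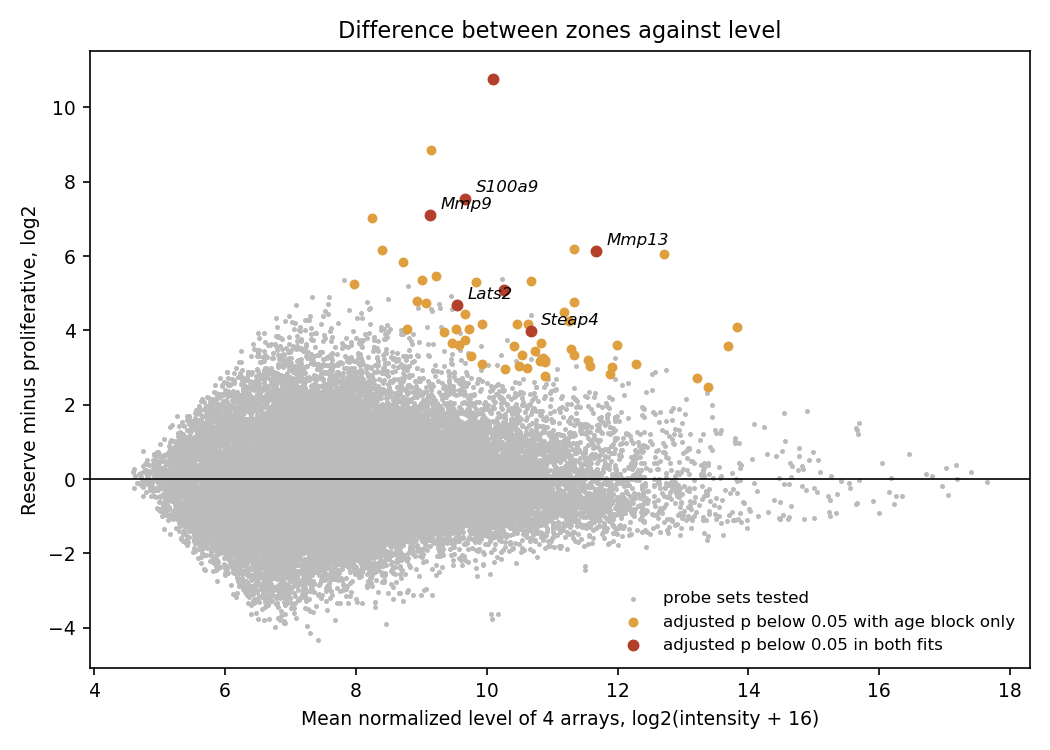
Difference between zones (reserve minus proliferative, log2) against the mean normalized level of the 4 arrays, 1 point for each of 31042 probe sets. Red points are the 7 called in both fits and orange points those of the 60 called only with age as a block. All coloured points lie above 0, and the labelled genes lie between a difference of 3.98 (Steap4) and 7.55 (S100a9).

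The 5 genes S100a9, Mmp13, Mmp9, Steap4 and Lats2 rose in reserve. This is 0.0352% of genes, and their proliferative means were all below the other-organ level, so differences are given without folds. S100a9 encodes a subunit of calprotectin, a calcium-binding protein stored in neutrophils. Mmp13 is the collagenase that cleaves type II collagen where cartilage is replaced by bone, and Mmp9 is the gelatinase of osteoclasts and neutrophils. Steap4 is a metalloreductase of iron and copper, and Lats2 is a kinase of the Hippo pathway, which limits growth by holding the coactivators Yap1 and Wwtr1 out of the nucleus. Their shared direction follows from how they were picked, since every call was higher in reserve, and a common control was not tested. The RefSeq promoter set used here held no entry for Mmp9 and Lats2. The 250 bases before the annotated start of the other 3 are shown, with motif matches in capitals. They were taken from build GRCr8 at chr2:178490623-178490872 (minus strand), chr8:12782579-12782828 (plus strand) and chr4:27054770-27055019 (minus strand).
S100a9: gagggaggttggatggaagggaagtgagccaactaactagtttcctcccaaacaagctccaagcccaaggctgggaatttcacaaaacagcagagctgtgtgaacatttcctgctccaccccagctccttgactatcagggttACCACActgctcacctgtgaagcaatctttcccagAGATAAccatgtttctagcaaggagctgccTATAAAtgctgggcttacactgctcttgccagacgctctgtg
Mmp13: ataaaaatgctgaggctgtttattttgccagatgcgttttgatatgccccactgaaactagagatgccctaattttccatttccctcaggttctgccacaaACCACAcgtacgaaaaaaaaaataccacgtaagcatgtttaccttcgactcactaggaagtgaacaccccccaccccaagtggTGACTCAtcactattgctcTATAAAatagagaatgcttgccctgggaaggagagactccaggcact
Steap4: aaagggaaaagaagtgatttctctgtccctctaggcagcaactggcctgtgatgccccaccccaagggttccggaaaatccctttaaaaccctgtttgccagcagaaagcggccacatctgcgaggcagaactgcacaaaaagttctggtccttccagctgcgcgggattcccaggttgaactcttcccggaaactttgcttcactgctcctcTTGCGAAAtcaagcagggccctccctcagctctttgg
The motifs were searched on both strands, apart from TATA, which was searched on the gene's strand only. AP-1 was spelled TGANTCA, which equals its own complement. Runx was spelled TGTGGT, with its complement ACCACA. C/EBP was spelled TTGCNNAA or, on the other strand, TTNNGCAA. GATA was spelled AGATAA, with its complement TTATCT, and TATA was spelled TATAAA. No 2 matches shown share a base. S100a9 held a Runx match, a GATA match and a TATA match, the last beginning 42 bases before the start. Mmp13, a gene whose human and mouse promoters are bound by Runx2 and AP-1 factors, held an AP-1 match 66 bases before the start, a Runx match and a TATA match. Steap4 held a C/EBP match alone. Among 33469 promoters of the same length, 6.34% held the AP-1 letters, 14.5% Runx, 9.22% C/EBP, 10.3% GATA and 8.06% TATA, and a match says only that the letters stand there. Promoters of Mmp9 and Lats2 are not shown.

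S100a9 (probe set 1387125_at) read 13.34 at 42 days and 13.56 at 46 days in reserve arrays, against 6.36 and 5.44 in proliferative arrays. The difference was 7.55 (SE 0.74), with a limma adjusted p of 0.000438. Its partner S100a8, the other calprotectin subunit, read 13.56 and 13.60 in reserve arrays and 4.85 and 4.62 in proliferative arrays. The groups lay 8.85 (SE 1.55) apart, which missed the threshold at a limma adjusted p of 0.0606 and passed it with age as a block at an adjusted p of 0.00191. Both subunits were bright in both reserve arrays and far below the other-organ level in both proliferative arrays.

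Mmp13 (1388204_at) was the most even of the called genes, at 14.75 and 14.73 in reserve arrays and 8.65 and 8.57 in proliferative arrays. Its difference was 6.13 (SE 0.66), with a limma adjusted p of 0.000948. Mmp9 (1398275_at) read 13.30 and 12.09 in reserve arrays and 5.48 and 5.70 in proliferative arrays. That is a difference of 7.11 (SE 0.93), with a limma adjusted p of 0.00655. For both proteases the lower reserve array stood far above the higher proliferative array. Steap4 (1385397_at) read 12.82 and 12.52 in reserve arrays and 8.72 and 8.65 in proliferative arrays, a difference of 3.98 (SE 0.57) with a limma adjusted p of 0.0162. Lats2 (1390207_at) read 12.23 and 11.56 in reserve arrays and 8.37 and 6.06 in proliferative arrays, a difference of 4.68 (SE 0.72) with a limma adjusted p of 0.0334. Lats2 had the widest spread of the 5 within the proliferative zone, and its groups did not overlap.

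Each of these calls was lost when some array was left out of the limma fit. Without the 42-day reserve array the adjusted p was 0.0865 for S100a9 and Mmp13, 0.434 for Mmp9 and Steap4 and 0.785 for Lats2. Without the 46-day proliferative array only S100a9 stayed below the threshold, and the differences of the 5 kept their direction with every array left out.

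The other 2 called probe sets name no single gene. Probe set 1371245_a_at, which the platform annotation assigns to several genes, read 14.70 and 16.25 in reserve arrays and 4.85 and 4.56 in proliferative arrays, the widest called difference at 10.77 (SE 1.71, limma adjusted p = 0.039). Probe set 1387029_at, without a gene symbol, read 12.64 and 12.98 in reserve arrays and 8.09 and 7.35 in proliferative arrays, a difference of 5.09 (SE 0.62) with a limma adjusted p of 0.00352.

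**Figure D2:**
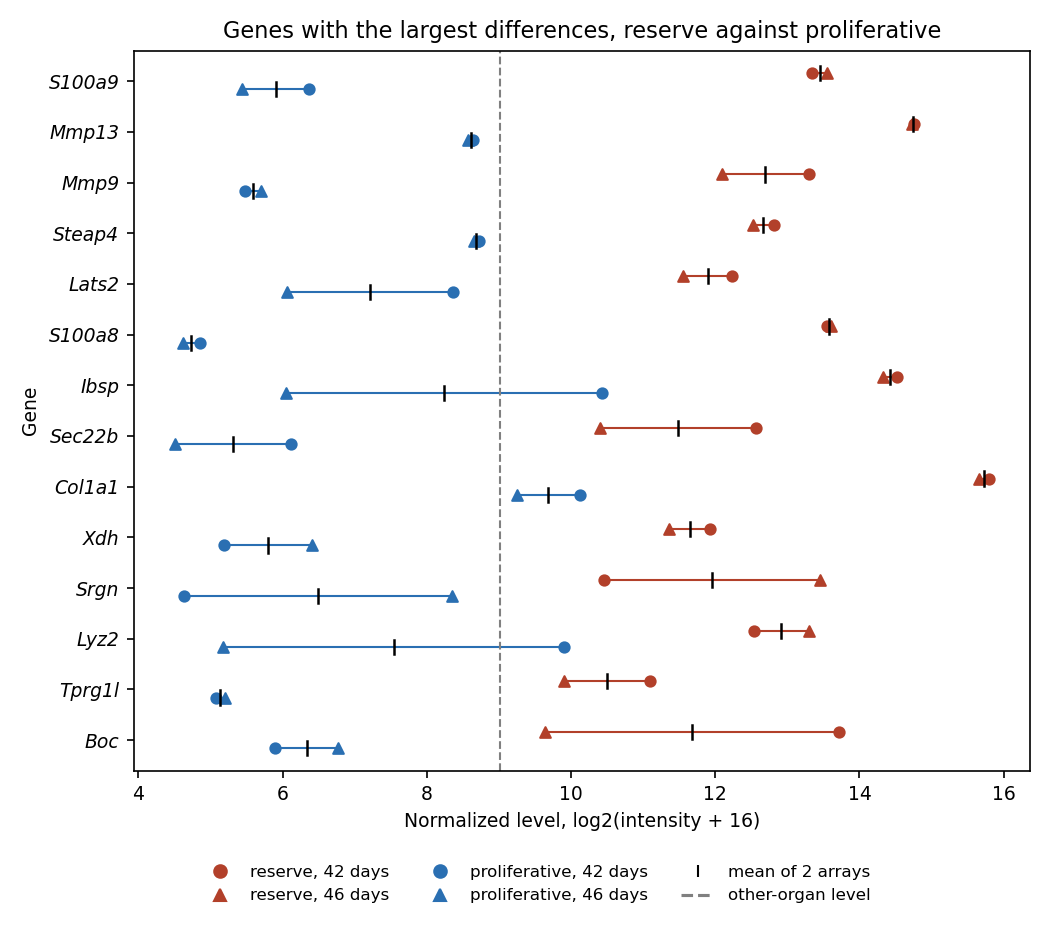
Normalized level, log2(intensity + 16), of the 5 called genes and of other genes with the largest differences in both reserve (red) and proliferative (blue) arrays, with circles for 42 days, triangles for 46 days, a tick for the mean of 2 arrays and a dashed line at the other-organ level of 9.01. In every gene shown both reserve arrays lie above both proliferative arrays, which the rule that picked the genes not called required. Ibsp and Lyz2 each have a proliferative array above the line at 42 days and far below it at 46 days.

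Of 14 osteoblast and bone genes measured, 7 were higher at an unadjusted p below 0.05 and 0 lower, against 6.1% and 2.41% of all genes. Their median difference was 1.73, against 0.06 over all genes, and it was 2.45 at 42 days and 1.52 at 46 days. None of them passed in the first fit, and 3 did with age as a block, where 0.288% of all genes were called. Col1a1, a chain of the type I collagen of bone and tendon, read 15.80 and 15.66 in reserve arrays and 10.12 and 9.24 in proliferative arrays. Col1a1 thus differed by 6.05 (SE 1.10), with a limma adjusted p of 0.0713 and, with age as a block, of 0.00085. Col1a2, the partner chain, read 15.66 and 16.09 in reserve arrays and 12.17 and 11.36 in proliferative arrays (adjusted p = 0.291, and 0.0207 with the block). Both chains of type I collagen were measurable in the proliferative zone and lay well below their reserve values.

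Ibsp, bone sialoprotein, read 14.52 and 14.33 in reserve arrays and 10.42 and 6.05 in proliferative arrays, a difference of 6.19 (SE 1.09, limma adjusted p = 0.0606, and 0.00191 with the block). Dmp1, a mineralising protein of osteocytes, read 12.01 and 13.76 in reserve arrays and 8.89 and 8.04 in proliferative arrays (adjusted p = 0.208). Bglap, osteocalcin, was less clearly apart, at 9.30 and 11.54 in reserve arrays and 5.45 and 8.79 in proliferative arrays (adjusted p = 0.624). The dimmer reserve array of Bglap was thus only slightly above the brighter proliferative one. Spp1, osteopontin, stood at 9.25 and 9.81 in reserve arrays and 8.83 and 8.51 in proliferative arrays, a difference of 0.86 (SE 0.73). The summed deposited intensity of the bone list was 281000 and 174000 in reserve arrays and 35000 and 15200 in proliferative arrays, and the part of bone tissue in these values was not tested. In bulk RNA, fewer cells of a type and less RNA per cell cannot be told apart, which holds for every gene described here.

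At an unadjusted p below 0.05, 6.1% of all genes were higher and 2.41% lower. The fibrous perichondrium and periosteum list, 37 genes measured, had 8 higher (21.6%) and 1 lower (2.7%). Its median difference was 0.79, and it stood at 1.54 at 42 days and 0.18 at 46 days. It ran from 0.49 without the 42-day proliferative array to 1.28 without the 46-day reserve array. Pdgfra, the platelet-derived growth factor receptor of mesenchymal cells, read 13.62 and 14.04 in reserve arrays and 10.70 and 10.77 in proliferative arrays. It differed by 3.10 (SE 0.53), with a limma adjusted p of 0.0563 and, with age as a block, of 0.00499. Col5a2, a chain of the type V collagen that starts type I fibrils, read 13.93 and 14.47 in reserve arrays and 12.40 and 10.16 in proliferative arrays (adjusted p = 0.469). Fmod, fibromodulin, a small proteoglycan that binds collagen fibrils, read 14.13 and 11.86 in reserve arrays and 10.75 and 8.57 in proliferative arrays, with an adjusted p of 0.414 that became 0.00715 with the block. Fmod was lower at 46 days in both zones by a like amount. Of 7 tendon and ligament genes measured, 2 passed with the block, Col1a1 and Fmod, where 0.288% of all genes were called.

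Osteoclast genes had a median difference of 2.43 over 15 genes. At an unadjusted p below 0.05, 7 were higher (46.7%) and 0 lower, against 6.1% and 2.41% of all genes. The median was 2.24 at 42 days and 1.25 at 46 days, and it was 0.88 when all probe sets of a gene were averaged, 1.37 without the 42-day reserve array and, leaving out the 42-day proliferative array, 1.5. It was the largest of the 36 lists with 1 probe set per gene. With all probe sets averaged it was below the bone list (1.87) and below the leukocyte, cathepsin, iron, erythroid, endothelial, tendon and fibrous lists. Without the 42-day proliferative array it was below the bone list (1.79) and the leukocyte list. Only Mmp9 was called in either fit. Itgb3, the integrin chain with which osteoclasts hold on to bone, read 11.71 and 11.13 in reserve arrays and 5.26 and 8.55 in proliferative arrays (limma adjusted p = 0.173). Car2, the carbonic anhydrase that supplies acid for resorption, read 9.80 and 11.60 in reserve arrays and 5.85 and 7.53 in proliferative arrays (adjusted p = 0.388). Ctsk, the collagen-cutting cathepsin of osteoclasts, read 11.24 and 9.54 in reserve arrays and 4.86 and 8.29 in proliferative arrays (adjusted p = 0.412). Acp5, tartrate-resistant acid phosphatase, stood only a little above the other-organ level in reserve, at 9.83 and 9.48, against 6.52 and 6.30 in proliferative arrays (adjusted p = 0.524). Ctsk and Acp5, the defining osteoclast markers, were below the other-organ level in both proliferative arrays.

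Among 31 metalloproteinases and inhibitors, the 2 called genes were Mmp13 and Mmp9. At an unadjusted p below 0.05, 3 were higher (9.68%) and 0 lower, against 6.1% and 2.41% of all genes. Of the 5695 genes above the other-organ level in either zone, 661 were higher (11.6%) and 177 lower. That level was passed by 15 of the 31. The third higher gene of the list was Adamts1, an aggrecan-cleaving protease, at 11.33 and 10.65 in reserve arrays and 7.51 and 7.22 in proliferative arrays (adjusted p = 0.308). Non-overlap was common in this family, with 15 of 31 higher in both reserve arrays against 21.3% of all genes. Of 20 cathepsin and lysosome genes, 19 had a higher mean in reserve and their median difference was 1.27 (0.80 without the 46-day proliferative array), while 3 passed an unadjusted p below 0.05 and 0 were called in either fit.

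The leukocyte and marrow list, 33 genes measured of 43, had a median difference of 1.5. At an unadjusted p below 0.05, 14 were higher (42.4%) and 0 lower, against 6.1% and 2.41% of all genes. The median was 1.89 at 42 days and 1.56 at 46 days, and it was 0.98 with 64 added before the logarithm. Its summed deposited intensity was 59300 and 53400 in reserve arrays and 5210 and 6830 in proliferative arrays. Srgn, the serglycin of blood cell granules, which is not in the list, read 10.46 and 13.46 in reserve arrays and 4.63 and 8.34 in proliferative arrays (limma adjusted p = 0.106, and 0.0207 with the block). Lyz2, the lysozyme of macrophages and neutrophils, read 12.54 and 13.30 in reserve arrays and 9.90 and 5.18 in proliferative arrays (adjusted p = 0.524). Fcer1g, the signalling chain of Fc receptors, read 12.33 and 10.92 in reserve arrays and 5.56 and 8.29 in proliferative arrays (adjusted p = 0.427). Ptprc, the CD45 antigen of all leukocytes, stood at 9.38 and 9.80 in reserve arrays and 7.11 and 8.22 in proliferative arrays (adjusted p = 0.649). The defining markers S100a8, S100a9 and Ptprc were all below the other-organ level in both proliferative arrays, and Mpo was not analysed here. How much of any difference rests on marrow cells was not tested.

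The erythroid list had 6 of 17 genes higher (35.3%, against 6.1% of all genes) and 0 lower at an unadjusted p below 0.05, with a median difference of 0.68. That median was 0.96 at 42 days and 1.32 at 46 days, and it ran from 0.52 without the 46-day reserve array to 1.18 without the 46-day proliferative array. Leaving out a 42-day array gave 1.05 (reserve) and 1.13 (proliferative). Hemgn, a nuclear protein of blood progenitors, read 12.48 and 14.96 in reserve arrays and 7.89 and 10.02 in proliferative arrays (limma adjusted p = 0.0832, and 0.0154 with the block). Tfrc, the transferrin receptor that takes up iron, read 13.64 and 13.11 in reserve arrays and 9.12 and 9.14 in proliferative arrays, and differed by 4.24 (SE 0.83, adjusted p = 0.106, and 0.00542 with the block). Ahsp, which stabilises alpha globin, read 10.99 and 12.14 in reserve arrays and 6.27 and 8.99 in proliferative arrays (adjusted p = 0.501). The defining markers were less clear-cut. Alas2, the haem synthesis enzyme of red cell precursors, stood at 9.97 and 9.69 in reserve arrays and 8.10 and 5.40 in proliferative arrays, while the Hbb probe set stood at 10.68 and 11.23 in reserve arrays and 9.72 and 10.83 in proliferative arrays. Hbb overlapped between the zones and differed by 0.68 (SE 0.64), and globin genes of 1 cluster are near copies whose signals a probe set may not tell apart.

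Of 17 iron and metal handling genes, 5 were higher (29.4%, against 6.1% of all genes) and 0 lower at an unadjusted p below 0.05. Steap4 was called, and Steap4 and Tfrc were called with the block. The median difference was 0.82, close to the same at 42 days (0.83) and 46 days (1.06). Slc40a1, ferroportin, which lets iron out of cells, read 11.36 and 11.48 in reserve arrays and 7.98 and 8.84 in proliferative arrays (limma adjusted p = 0.376). Mt3, a metallothionein, read 9.91 and 9.56 in reserve arrays and 6.83 and 5.86 in proliferative arrays (adjusted p = 0.451). Tfrc and Slc40a1 were named for having among the largest differences of the list, and neither passed in the first fit. Of the 17 genes, 13 had a higher mean in reserve and 4 a lower one. Both reserve arrays lay above both proliferative arrays in 52.9% of the list, against 21.3% of all genes.

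Endothelial genes were higher in part. At an unadjusted p below 0.05, 4 of 21 were higher (19.0%) and 0 lower, against 6.1% and 2.41% of all genes. Kdr, the main VEGF receptor of endothelium, read 11.58 and 11.50 in reserve arrays and 6.88 and 8.69 in proliferative arrays, a difference of 3.75 (SE 0.70, limma adjusted p = 0.0832, and 0.025 with the block). Tek, the angiopoietin receptor, read 9.09 and 11.49 in reserve arrays and 7.51 and 8.63 in proliferative arrays (adjusted p = 0.636). The list's median difference was 0.54, at 1.43 for 42 days and 0.20 for 46 days, and it ran from 0.14 without the 42-day to 1.34 without the 46-day proliferative array. Vegfa, which hypertrophic chondrocytes release to draw vessels in, read 11.52 and 7.80 in reserve arrays and 10.01 and 9.42 in proliferative arrays. The reserve arrays of Vegfa lay on either side of both proliferative arrays.

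**Figure D3:**
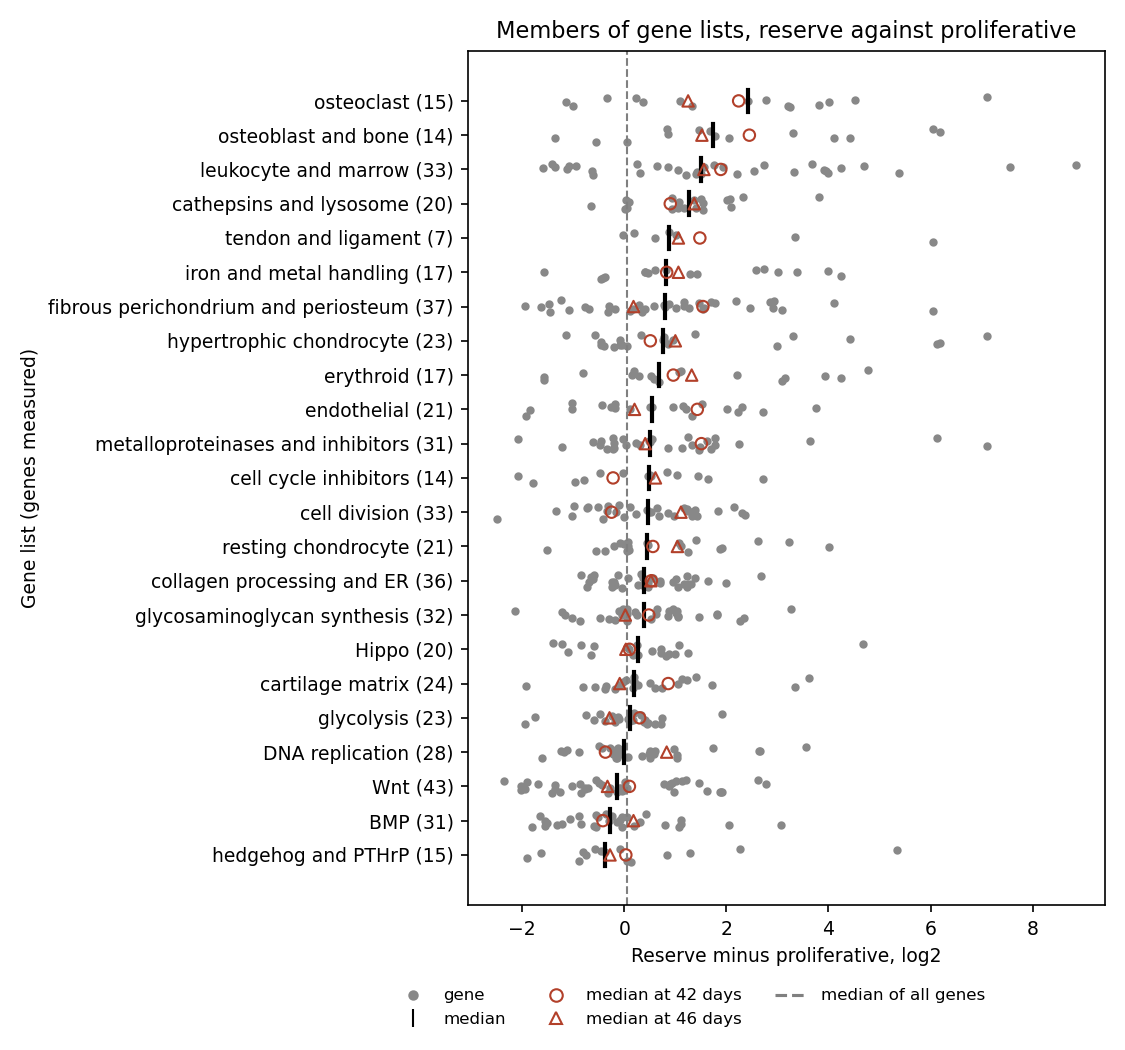
Difference between zones (reserve minus proliferative, log2) of every measured gene in 23 of the 36 gene lists, with 1 grey point per gene, a black tick at the list's median, a red circle and triangle at the medians for 42 and 46 days, and a dashed line at the median of all genes, 0.06. Osteoclast genes have the highest median, 2.43, and hedgehog and PTHrP genes the lowest of those shown, -0.37, a value above 0 if either the 46-day reserve or the 42-day proliferative array is left out.

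Cartilage genes checked the label of the tissue. Col2a1, the main cartilage collagen, read 17.58 and 17.40 in reserve arrays and 17.40 and 17.21 in proliferative arrays, among the brightest values measured. Quantile normalization gives the top-ranked probe sets of every array the same set of values, so this evenness cannot compare the zones. The deposited intensities of Col2a1 were 202800 and 114600 in reserve arrays and 214600 and 132800 in proliferative arrays. Its normalized difference was 0.18, with a 95% confidence interval from -2.46 to 2.83. Acan, aggrecan, read 14.12 and 12.03 in reserve arrays and 13.08 and 12.69 in proliferative arrays. Sox9, the third defining cartilage marker, was not analysed here. Across 24 cartilage matrix genes 2 were higher (8.33%) and 0 lower at an unadjusted p below 0.05, and 0 were called. Of all genes 6.1% were higher and 2.41% lower. Of the 5695 genes above the other-organ level in either zone, 661 were higher (11.6%) and 177 lower. That level was passed by 22 of the 24 cartilage matrix genes. The median difference of the list, 0.19, had no settled direction, at 0.86 for 42 days and -0.09 for 46 days. It ran from -0.27 without the 42-day to 1.21 without the 46-day reserve array. With age as a block 2 passed, Fmod and Mgp, where 0.288% of all genes were called. Mgp, matrix Gla protein, which restrains mineral deposition, read 15.41 and 12.19 in reserve arrays and 12.30 and 8.07 in proliferative arrays (limma adjusted p = 0.469, and 0.0116 with the block). Within each zone Mgp was far lower at 46 days, and at each age it was higher in reserve. Chad, chondroadherin, read 11.27 and 9.03 in reserve arrays and 8.84 and 8.0 in proliferative arrays (adjusted p = 0.685), and Matn1, matrilin-1, overlapped between the zones at 11.00 and 9.40 in reserve arrays and 10.21 and 10.36 in proliferative arrays.

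Resting chondrocyte genes had a median difference of 0.44 over 21 genes (0.31 to 0.71 with an array of either zone left out). At an unadjusted p below 0.05, 3 were higher (14.3%) and 0 lower, against 6.1% and 2.41% of all genes, and 0 were called in either fit. Ucma, a secreted Gla-rich protein of resting cartilage, read 15.86 and 14.02 in reserve arrays and 14.19 and 12.90 in proliferative arrays. Its difference was 1.40 (SE 0.70) with a 95% confidence interval from -0.09 to 2.88, and its zones overlapped. Sfrp5, a Wnt inhibitor of the resting zone, stood at 9.34 and 7.72 in reserve arrays and 7.30 and 6.0 in proliferative arrays, a difference of 1.88 (SE 1.30). Gas1, a cell surface protein of resting chondrocytes, was below the other-organ level in all 4 arrays and overlapped between the zones. The largest differences in the list were Cd200, a membrane glycoprotein that marks skeletal stem cells in mice, at 9.28 and 9.01 in reserve arrays and 5.17 and 5.08 in proliferative arrays, and Cytl1, a secreted protein of chondrocytes, at 9.47 and 7.66 in reserve arrays and 5.07 and 5.61 in proliferative arrays. Neither passed (limma adjusted p = 0.451 and 0.541), and the resting marker Pthlh was not analysed here.

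Cell division genes were examined next to the label of the proliferative zone. Mki67, a protein of dividing cells, read 12.83 and 13.94 in reserve arrays and 12.84 and 13.04 in proliferative arrays. The difference was 0.44 (SE 0.62), and its 95% confidence interval, from -0.87 to 1.76, held differences in either direction. Top2a, the topoisomerase that untangles replicated chromosomes, read 9.81 and 10.35 in reserve arrays and 9.31 and 7.18 in proliferative arrays. Cdk1, the kinase that drives mitosis, read 9.64 and 9.99 in reserve arrays and 8.84 and 8.32 in proliferative arrays (limma adjusted p = 0.752). Both were higher in each reserve array than in either proliferative array, as were 27.3% of cell division genes and 21.3% of all genes. The reverse held for 18.2% and 19.1%. Over 33 cell division genes 20 had a higher mean in reserve, against 7433 of all 14217 genes. At an unadjusted p below 0.05, 2 were higher (6.06%) and 0 lower, against 6.1% and 2.41% of all genes, and 0 were called in either fit. Of the 5695 genes above the other-organ level in either zone, 661 were higher (11.6%) and 177 lower. The cell division list had 21 of its 33 genes above that level. The median difference of 0.47 held opposite signs by age, -0.25 at 42 days and 1.11 at 46 days, without the 46-day reserve array it was -0.12, and without the 42-day reserve array it was 1.18. Bub1, a spindle checkpoint kinase, read 8.61 and 11.10 in reserve arrays and 7.54 and 7.87 in proliferative arrays (limma adjusted p = 0.616). Of 28 DNA replication genes, 3 were higher at an unadjusted p below 0.05, led by Rrm1, a subunit of ribonucleotide reductase, at 9.64 and 10.12 in reserve arrays and 5.76 and 6.88 in proliferative arrays (adjusted p = 0.509). The medians of cell division, erythroid and leukocyte genes were -0.25, 0.96 and 1.89 at 42 days. At 46 days they were 1.11, 1.32 and 1.56. The part of blood cells in the cell division values was not tested. The zone names are used here as the labels give them.

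**Figure D4:**
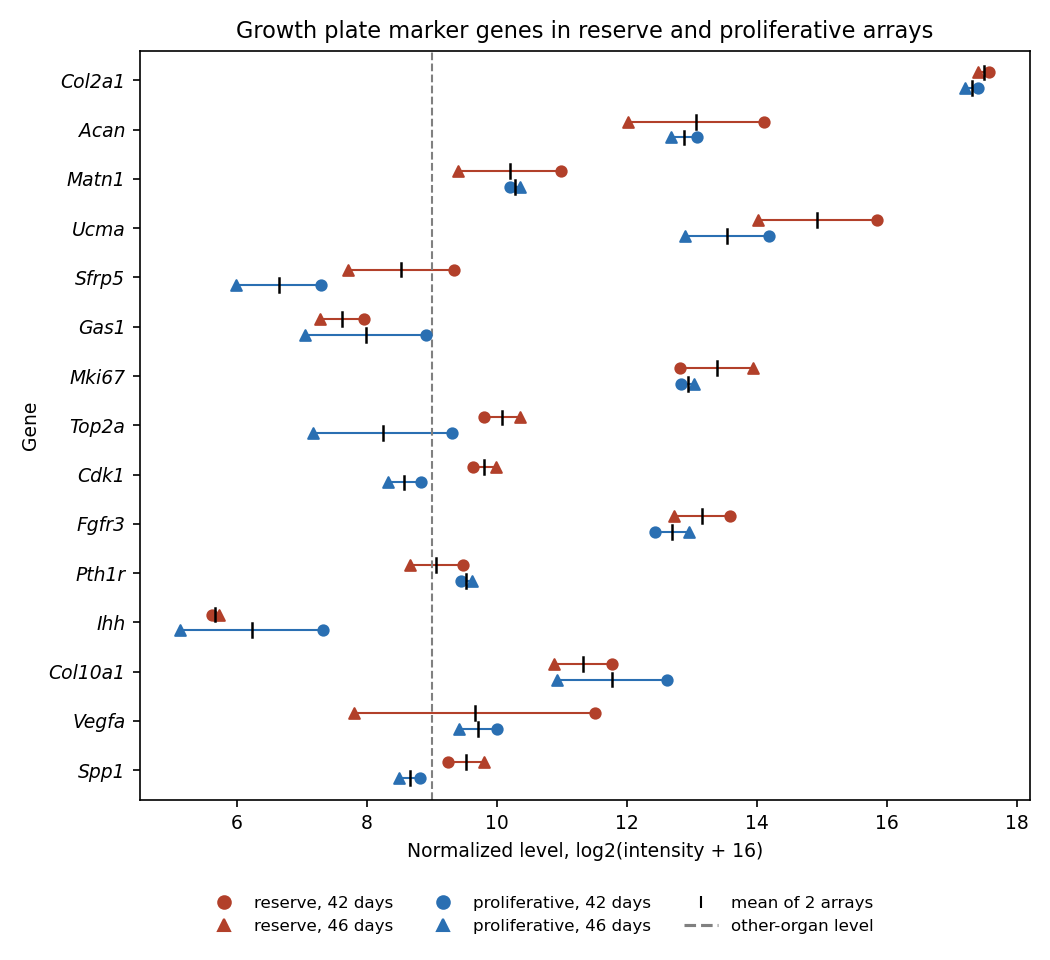
Normalized level, log2(intensity + 16), of growth plate marker genes in reserve (red) and proliferative (blue) arrays, with circles for 42 days, triangles for 46 days, a tick for the mean of 2 arrays and a dashed line at the other-organ level of 9.01. Col2a1 lies between 17.21 and 17.58 in all 4 arrays, where quantile normalization holds values nearly equal, and Mki67 between 12.83 and 13.94.

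Genes of the hypertrophic list divided into dim or overlapping markers and a few far apart. Of 23 genes, 6 were higher (26.1%, against 6.1% of all genes) and 0 lower at an unadjusted p below 0.05. The 2 called were Mmp13 and Mmp9, which osteoclasts and bone cells also use. Col10a1, the collagen particular to hypertrophic chondrocytes, read 11.78 and 10.88 in reserve arrays and 12.62 and 10.94 in proliferative arrays, a difference of -0.45 (SE 0.71). Ihh, Indian hedgehog, was below the other-organ level in all 4 arrays. The defining hypertrophic genes thus overlapped or were dim in both zones, while Mmp13 and Ibsp of the same list stood far apart.

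Hedgehog and PTHrP genes had a median difference of -0.37 over 15 genes, with 1 higher and 1 lower at an unadjusted p below 0.05. That is 6.67% each way, against 6.1% and 2.41% of all genes. That median had no settled direction, since it was 0.66 when the 46-day reserve array was left out and 0.47 when the 42-day proliferative array was. Boc, a hedgehog co-receptor, read 13.72 and 9.64 in reserve arrays and 5.89 and 6.77 in proliferative arrays, a difference of 5.35 (SE 0.97, limma adjusted p = 0.0713, and 0.0116 with the block). Without the 42-day reserve array the difference of Boc was 3.28. Cdon, the related co-receptor, read 7.99 and 7.82 in reserve arrays and 9.47 and 10.17 in proliferative arrays, a difference of -1.91 (SE 0.82, adjusted p = 0.626). Boc and Cdon, which share a role, therefore lay in opposite directions. Smo, the membrane protein that passes the hedgehog signal on, had only 1 of its 2 probe sets higher in reserve. The one used here read 10.04 and 7.92 in reserve arrays and 7.51 and 5.91 in proliferative arrays (adjusted p = 0.711). Pth1r, the receptor of PTHrP, read 9.48 and 8.67 in reserve arrays and 9.45 and 9.62 in proliferative arrays, a difference of -0.46 (SE 0.70).

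Of 20 Hippo genes, Lats2 alone was called. Stk4, the kinase above it, overlapped at 11.96 and 13.00 in reserve arrays and 12.54 and 9.92 in proliferative arrays. Amotl2, which holds the coactivators at cell junctions, was the only member lower at an unadjusted p below 0.05, at 11.30 and 11.33 in reserve arrays and 12.13 and 12.93 in proliferative arrays (limma adjusted p = 0.634). The median difference of the list was 0.26 (0.03 without the 46-day proliferative array).

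Wnt, BMP, FGF, TGF-beta and growth hormone and IGF genes had no call in either fit. Their counts at an unadjusted p below 0.05 were near the background of all genes, 6.1% higher and 2.41% lower. Of the 5695 genes above the other-organ level in either zone, 661 were higher (11.6%) and 177 lower. Wnt genes numbered 3 higher and 0 lower of 43, with a median difference of -0.14 (-0.53 without the 42-day proliferative array, -0.017 without the 46-day reserve array). Dkk3, a secreted glycoprotein related to Wnt inhibitors, read 9.29 and 9.21 in reserve arrays and 5.88 and 7.37 in proliferative arrays (limma adjusted p = 0.51). BMP genes numbered 2 higher and 1 lower of 31, the lower one being Fst, follistatin, which binds activins, at 9.52 and 10.69 in reserve arrays and 11.68 and 11.85 in proliferative arrays (adjusted p = 0.623). Fst lay above the other-organ level in all 4 arrays and was lower in both reserve arrays. FGF genes numbered 2 higher and 1 lower of 21. Fgfr3, the receptor that slows growth plate chondrocytes, read 13.59 and 12.73 in reserve arrays and 12.44 and 12.96 in proliferative arrays, a difference of 0.46 (SE 0.58), and Dusp6, a phosphatase induced by FGF signalling, read 12.61 and 14.87 in reserve arrays and 11.87 and 11.95 in proliferative arrays (adjusted p = 0.615). TGF-beta genes numbered 1 higher and 0 lower of 19. The higher was the receptor Tgfbr1, at 11.11 and 11.58 in reserve arrays and 8.06 and 9.69 in proliferative arrays (adjusted p = 0.388). Only 1 of the 2 probe sets of Tgfbr1, 1 of 2 of Fgfr3 and 2 of 3 of Dusp6 were higher in reserve. Growth hormone and IGF genes numbered 1 higher and 1 lower of 22, namely Igfbp7, an IGF-binding protein, at 12.41 and 11.30 in reserve arrays and 10.22 and 10.48 in proliferative arrays, and Igf2.

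Chondrocyte transcription factors numbered 2 higher and 2 lower of 25 at an unadjusted p below 0.05. That is 8.0% each way, against 6.1% and 2.41% of all genes. Hoxd10 and Pitx1, limb patterning factors, were the lower pair. Hoxd10 read 7.43 and 8.61 in reserve arrays and 10.30 and 9.78 in proliferative arrays, a difference of -2.02 (SE 0.67, limma adjusted p = 0.51). Pitx1 read 7.38 and 9.26 in reserve arrays and 10.18 and 10.37 in proliferative arrays (adjusted p = 0.618). Both reserve values of Hoxd10 lay below the other-organ level and both proliferative values above it. Zfp521, a zinc finger protein of the perichondrium and chondrocytes, read 12.73 and 11.30 in reserve arrays and 10.92 and 7.03 in proliferative arrays (adjusted p = 0.479, and 0.0385 with the block).

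Genes lower in reserve were dimmer and fewer than those higher. Differences of at least 1 at both ages were seen in 1340 genes higher (9.43%) and 837 lower (5.89%), and above the other-organ level in 746 (13.1%) and 255 (4.48%) of 5695 genes. The 12 genes named by size on the lower side had reserve means from 4.77 to 6.58 and proliferative means from 8.27 to 10.02, and 3 of them (Pinx1, Atp2b3 and Samd12) passed the other-organ level in proliferative arrays. Their limma adjusted p ran from 0.426 to 0.548. Igf2, the fetal insulin-like growth factor, read 4.74 and 4.79 in reserve arrays and 8.73 and 8.78 in proliferative arrays, a difference of -3.99 (SE 1.14, adjusted p = 0.426). All 4 values of Igf2 lay below the other-organ level, and only 2 of its 4 probe sets were lower in reserve. Pinx1, a telomerase inhibitor, read 5.52 and 6.06 in reserve arrays and 9.04 and 9.60 in proliferative arrays, and Atp2b3, a plasma membrane calcium pump, read 5.46 and 7.69 in reserve arrays and 10.66 and 9.39 in proliferative arrays. Samd12 read 5.50 and 6.68 in reserve arrays and 10.89 and 7.96 in proliferative arrays. Pinx1 and Atp2b3 lay above the other-organ level in both proliferative arrays and Samd12 in 1. Of the 3 probe sets of Atp2b3, 2 were lower in reserve. Fgf7, keratinocyte growth factor, stood at 5.15 and 5.58 in reserve arrays and 8.06 and 8.71 in proliferative arrays (adjusted p = 0.568).

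Other genes with large differences belong to no single cell type. Sec22b, a protein of vesicle traffic between the endoplasmic reticulum and the Golgi, read 12.56 and 10.40 in reserve arrays and 6.12 and 4.50 in proliferative arrays (limma adjusted p = 0.0563, and 0.00191 with the block). Xdh, xanthine dehydrogenase, the last enzyme of purine breakdown, read 11.93 and 11.36 in reserve arrays and 5.18 and 6.41 in proliferative arrays (adjusted p = 0.0563, and 0.0164 with the block). B2m, the light chain of MHC class I, Cpe, carboxypeptidase E, and Smoc2, a matricellular calcium-binding protein, were chosen after their values were seen. B2m read 12.68 and 12.44 in reserve arrays and 9.02 and 7.74 in proliferative arrays (adjusted p = 0.0563, and 0.00499 with the block). Cpe read 16.39 and 14.57 in reserve arrays and 11.58 and 12.23 in proliferative arrays, which put it among the brightest genes of the reserve arrays (adjusted p = 0.41, and 0.0375 with the block). Smoc2 read 14.90 and 11.40 in reserve arrays and 9.88 and 10.01 in proliferative arrays (adjusted p = 0.383, and 0.0375 with the block), with most of its difference at 42 days.

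The zone differences of the 2 ages were only loosely alike. Over the brightest 0.2 share of the probe sets the difference at 42 days correlated with that at 46 days at r = 0.338, and across all probe sets at r = 0.139, both across genes, which are not replicates. Steap4 differed by 4.10 at 42 days and 3.87 at 46 days, and Mmp13 by 6.11 and 6.16. Boc by contrast differed by 7.83 at 42 days and 2.87 at 46 days, and Lyz2 by 2.64 and 8.12. With 1 array per zone and age, no test of an age effect on the zone difference was made.

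**Figure D5:**
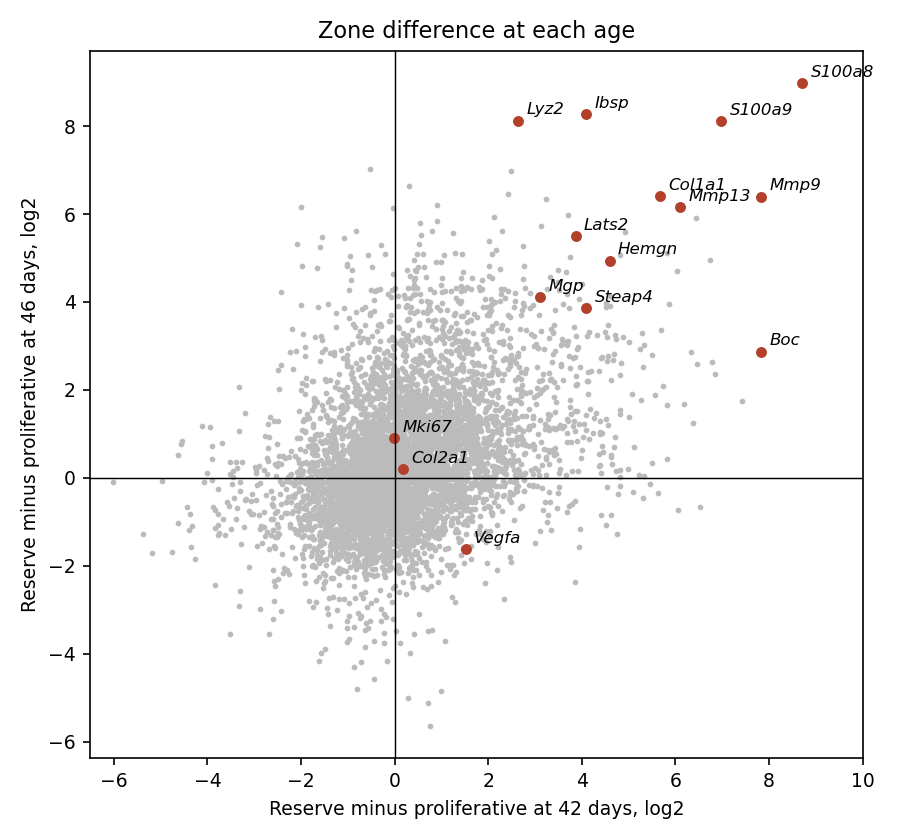
Difference between zones (reserve minus proliferative, log2) at 46 days against that at 42 days, 1 point for each of 5695 genes above the other-organ level in either zone, with genes described in the text in red. Mmp13 and Steap4 have nearly equal differences at both ages, Boc lies at 7.83 for 42 days and 2.87 for 46 days, and Vegfa lies at 1.52 and -1.62.

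The remaining lists gave no call in either fit. In all, 22 of the 36 lists had 0 calls in the first fit and 0 with the block. Pericyte and smooth muscle, skeletal muscle, adipocyte, and nerve and glia genes, which mark other cells around the plate, had median differences of -0.36, -0.46, 0.13 and -0.01. Apart from the adipocyte list, each of these medians changed sign with at least 1 array left out. Of the 23 glycolysis genes none passed an unadjusted p below 0.05 in either direction, against 6.1% higher and 2.41% lower of all genes. Glycosaminoglycan synthesis genes numbered 3 higher and 0 lower of 32 and collagen processing genes 4 higher and 0 lower of 36, with median differences of 0.39 in both (as low as 0.22 and 0.055 without the 46-day proliferative array, and as high as 0.57 and 0.86 without the 46-day reserve array).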

How the data were processed

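RNA from 8 pools was measured on Affymetrix arrays. The authors deposited linear intensity values for 31099 probe sets, and MAS5, GCOS and RMA are listed, with no version or role, in the submitters' processing notes. In the 8 arrays the trimmed mean intensity (trim 0.02) lay near 500, and the medians of the 4 arrays compared ran from 226.6 to 348.9. Detection calls were not used here.

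After 57 control probe sets were removed, log2(intensity + 16) was quantile normalized and fitted with 1 mean per zone (limma 3.58.1, R 4.3.3, lmFit, then eBayes with trend set, with 4 residual and a prior of 12.58 degrees of freedom). P-values were Benjamini-Hochberg adjusted over 31042 probe sets, and the threshold was 0.05. The fit was checked on simulated data. Genes were named from the platform annotation. It gave 1 symbol to 20826 probe sets, several to 436 and none to 9780. Lists used the probe set of a gene with the highest mean.

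Genes were named if called, if among the 12 largest differences per direction (no overlap, at least 1 at both ages, higher zone above the median), if among the 4 largest members of a list, or if among 16 growth plate genes, of which 13 were measured. The rule gave 152 genes, of which not all are described. Members, lists and rule were chosen with earlier results of these data known. Outside this rule, Bglap, Acp5, Ptprc, Alas2, Hbb and Cdk1 are given as defining cell type markers, and B2m, Cpe and Smoc2 were picked after their values were seen.

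The labels give both zones the same ages, so age as a block was the paired fit. The age differences of the zones correlated at r = 0.0225 over all probe sets and 0.058 over the brightest share of 0.2. Alternatives were other scalings, pseudocounts, a filter on low values, the 4 arrays alone, no variance trend, and each array left out.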

Additional observations from a re-analysis of the deposited data

Results flagged for a closer look

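The 5 results below had opposite directions at the 2 ages, with 1 array per zone and age, so the difference between the ages was not tested. Vegfa, the vessel-attracting growth factor, differed by 1.52 at 42 days and by -1.62 at 46 days (reserve minus proliferative, log2). The median difference of the DNA replication list was -0.37 at 42 days and 0.83 at 46 days. For the megakaryocyte and platelet list it was 0.68 and -0.86, for the TGF-beta list 0.41 and -0.36, and for the glycolysis list 0.30 and -0.29, at 42 and 46 days in each case. Groups of 2 arrays are too small to single out an array that stands apart.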

How the results depend on the processing

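The count of 7 called probe sets was 60 with age as a replicate block, 14 with values as deposited, 16 with 64 added, 3 of 13029 with a filter on low values, 27 with the 4 arrays alone and 0 without the variance trend, and it ran from 0 to 45 with each of the 8 arrays left out in turn. The causes were not tested. It was 8 with arrays centred on the median and 5 with 1 added. Leaving out a hypertrophic array gave 35 or 45 calls, a perichondral array 4 or 5, the 42-day or 46-day proliferative array 8 or 1, and the 42-day or 46-day reserve array 0 or 6. Without the 46-day reserve array 3 of the 6 calls were lower, all probe sets without a gene name (1381965_at, 1392039_at and 1392459_x_at), the only lower calls of any setting.

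Of the 5 called genes, Lats2 lost its call with 1 added (adjusted p = 0.0567), and the filter on low values took Mmp9 and Steap4 to 0.0711 and Lats2 to 0.133. Without the variance trend S100a9 had an adjusted p of 0.201 and the other 4 of 0.505. Median-centring put the median difference over all genes at 0.23, against 0.06.

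Of 116 genes followed across these settings, 108 kept their direction with every array left out. The naming rule gave 152 genes, and some outside the 116 changed direction, among them Cdkn1a (-0.21 to 3.10) and Myh7 (-2.87 to 0.21). The others of the 116 ran from -0.065 to 2.54 (Stk4), -1.34 to 0.39 (Col10a1), -0.83 to 1.23 (Acan) and -1.67 to 0.54 (Ihh). Likewise Mki67 ran from -0.12 to 1.01, Vegfa from -1.87 to 1.80, Matn1 from -0.86 to 0.71 and Gas1 from -1.31 to 0.56. Col2a1 was -0.15 as deposited. Vegfa was 0.018 as deposited, 0.29 median-centred and 0.019 with 64 added, and Matn1 was 0.024 as deposited and 0.29 median-centred. With 2 arrays per zone, the number of arrays limits what can be told apart.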

Other observations

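Myh1, a fast skeletal muscle myosin, was bright in every array, at 15.17 and 14.75 in reserve arrays and 14.99 and 16.09 in proliferative arrays (log2(intensity + 16), 42 and 46 days). The 18 skeletal muscle genes measured had summed deposited intensities of 52200 and 31500 in reserve arrays and 45000 and 54600 in proliferative arrays. Myh1 alone made up most of each sum, at 46840 and 26630 in reserve arrays and 38450 and 47440 in proliferative arrays. Of the 18 genes, 5 were above the other-organ level in either zone. Ttn, the giant spring protein of muscle, stood at 8.21 and 7.67 in reserve arrays and 8.60 and 10.46 in proliferative arrays.

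Hspa5 and Hsp90b1, chaperones of the endoplasmic reticulum, were higher in both reserve arrays. In the collagen processing list they belong to, 19.4% of genes had both reserve arrays above both proliferative arrays, against 21.3% of all genes. The reverse held for 11.1% and 19.1%. Hspa5 read 11.28 and 11.80 in reserve arrays and 10.18 and 8.91 in proliferative arrays (limma adjusted p = 0.637), and Hsp90b1 read 10.77 and 10.54 in reserve arrays and 9.16 and 9.35 in proliferative arrays (adjusted p = 0.654). Papss1, which makes the sulfate donor for cartilage proteoglycans, read 11.38 and 9.87 in reserve arrays and 8.41 and 9.21 in proliferative arrays (adjusted p = 0.636). Glce, the epimerase of heparan sulfate synthesis, read 11.01 and 10.20 in reserve arrays and 8.28 and 8.25 in proliferative arrays (adjusted p = 0.548). None of these passed the threshold.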
